A study of Mus musculus with 10 samples.

Results

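The binding landscape of Suz12-TAP was described in mouse embryonic stem cells (ESCs) carrying a control (scramble) shRNA. The members were all 8876 sites of the Suz12-TAP binding list, of 14118 sites in the Suz12-TAP and Pcl3-TAP binding lists together. The cells were BayGenomics gene trap line XG122 with the genotype Suz12 Suz12TAP/+, in which 1 allele of the endogenous locus encodes Suz12 with a C-terminal tandem affinity tag and the other allele is wild type. They carried the scramble shRNA from a lentivirus and were grown as selected clones. The study reports moderately raised Suz12 mRNA and protein in the tagged line relative to wild type. Many of its less significant sites were absent from earlier Suz12 data. The study proposes that they may be weak binding or an artifact of the raised Suz12 level. Chromatin was immunoprecipitated with the anti-FlagM2 antibody and compared with input DNA of the same cells, with 1 ChIP library and 1 input library. The comparator list came from Pcl3-TAP ChIP in the ESC line E14, where Pcl3 was knocked down with Pcl3-shRNA6 or Pcl3-shRNA7 and an shRNA-resistant Pcl3-TAP was expressed. It held 5242 sites, 1 list for 2 ChIP libraries. There was no replicate of the Suz12-TAP library, so no difference was tested. Intervals are 95% intervals that cover counting error over sites or genes only, and sites that lie close together are not independent. The lists hold no read counts, so the depth behind a site is unknown, and the identity of the cells as ESCs could not be checked from binding sites.

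Suz12 is a core subunit of Polycomb repressive complex 2 (PRC2), with Eed and the methyltransferases Ezh1 and Ezh2. The complex trimethylates lysine 27 of histone H3, and a second complex, PRC1, binds this mark through its Cbx subunits and ubiquitinates histone H2A. In ESCs, PRC2 is known for occupying CpG islands at the starts of developmental regulators that stay silent until differentiation.

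The sequences around the starts of a few genes show how CpG density differed between starts, with dense starts both with and without a Suz12 site. Each runs 5′ to 3′ on the strand of the gene, holds 120 bases of mm9 around an annotated start, and has every CpG dinucleotide in capitals. The first set consists of starts inside Suz12 sites with a p-value written as 0, which means too small for the number format. Nkx2-2 encodes a homeobox factor of the ventral neural tube, and Lhx1 a LIM homeobox factor of the head organizer and kidney.
Nkx2-2, chr2:147019920-147020039, minus strand: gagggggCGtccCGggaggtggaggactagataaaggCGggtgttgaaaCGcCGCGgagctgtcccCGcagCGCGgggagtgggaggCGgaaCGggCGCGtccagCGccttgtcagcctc
Lhx1, chr11:84338864-84338983, minus strand: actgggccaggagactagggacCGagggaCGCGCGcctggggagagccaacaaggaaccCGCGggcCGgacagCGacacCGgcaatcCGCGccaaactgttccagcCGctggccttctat

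These stretches held 14 and 12 CpG, in that order. The start of Nkx2-2 shown here, its most 5′ one, lay in a site of 3400 bp that is separate from the widest site of the gene, and the start of Lhx1 lay in a site of 11500 bp.

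The second set consists of starts without a Suz12 site. Rpl7a, a ribosomal protein, and Psma7, a proteasome subunit, were taken as the unbound members of their families with the densest CpG, and Olfr248 as an odorant receptor from the middle of its family.
Rpl7a, chr2:26766224-26766343, plus strand: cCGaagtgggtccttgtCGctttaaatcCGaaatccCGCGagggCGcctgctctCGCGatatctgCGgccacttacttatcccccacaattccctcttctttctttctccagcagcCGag
Psma7, chr2:179777079-179777198, minus strand: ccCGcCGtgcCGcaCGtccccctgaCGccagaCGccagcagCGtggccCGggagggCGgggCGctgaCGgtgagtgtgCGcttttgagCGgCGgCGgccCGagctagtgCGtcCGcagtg
Olfr248, chr1:176321117-176321236, plus strand: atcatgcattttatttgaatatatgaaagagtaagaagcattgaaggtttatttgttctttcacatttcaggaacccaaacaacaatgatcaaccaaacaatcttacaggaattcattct

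Psma7 held 18 CpG in its stretch and 12.8 CpG per 100 bp over 1 kb, and its nearest Suz12 site lay 57113 bp away. Rpl7a held 10 CpG, with the nearest site 116967 bp away, and Olfr248 held 0 CpG, with the nearest site 110524 bp away. A CpG-dense start was therefore seen both with and without a Suz12 site.

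Suz12 sites were short and lay near transcription starts. Site width ranged from 400 bp to 16950 bp, with a median of 1100 bp (1050 to 1100) and quartiles of 700 and 1800 bp. The sites covered 12908200 bp, which is 0.486% of chromosomes 1 to 19, X and Y. Sites of at least 2 kb numbered 1845 (20.8%), sites of at least 4 kb 340 (3.83%) and sites of at least 10 kb 23 (0.259%). The widest 888 sites held 29.3% of all bases in sites. The p-value, computed by the authors from ChIP against input, was written as 0 at 435 sites and was at most 1e-12 at 6696 sites (75.4%).

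Each site was assigned to the gene with the annotated start nearest to the centre of the site. The median distance was 438 bp (421 to 460). The centre lay within 500 bp of a start at 4674 sites (52.7%), within 1 kb at 5594 sites (63.0%, 62.0 to 64.0), within 5 kb at 7078 sites (79.7%) and within 10 kb at 7682 sites (86.5%). Only 88 sites (0.991%) lay more than 100 kb from any start. A start was inside the site itself at 5121 sites (57.7%, 56.7 to 58.7). In the Pcl3-TAP list, 53.2% of centres lay within 1 kb, 43.9% of sites held a start and the median distance was 844 bp (781 to 909). The lists differ in cell line, libraries and number of sites, which cannot be told apart from the protein.

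**Figure D1:**
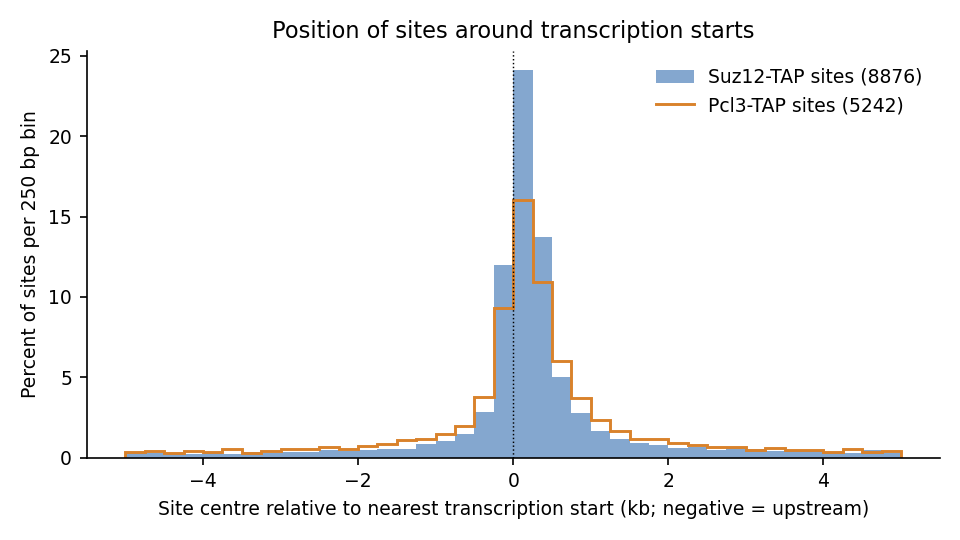
Percent of sites per 250 bp bin (vertical axis) by the signed distance in kb from the nearest annotated start to the centre of the site (horizontal axis, negative upstream), for the Suz12-TAP sites (filled) and the Pcl3-TAP sites (line). The highest bin of both lists is the one from 0 to 250 bp downstream, with 24.1% of Suz12 sites and 16% of Pcl3 sites.

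Suz12 sites lay more often toward the gene body. Among the 5594 sites centred within 1 kb, 4043 centres lay downstream of the start and 1545 upstream (72.3% downstream, 71.1 to 73.4), with a median position of 141 bp downstream. For the 3718 sites that held the most 5′ start of a coding gene, the site reached a median of 406 bp upstream and 964 bp downstream of that start, and 84.1% (82.9 to 85.3) reached farther downstream. Choosing the most 5′ of several starts can itself place a site downstream. Among the 1309 genes with a single annotated start the medians were 436 bp and 955 bp, with 81.3% (79.1 to 83.3) reaching farther downstream. The centre of the site was in an exon at 44.9% of sites, in an intron at 31.2% and between genes at 23.9%.

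Wider sites had smaller p-values. Over the 8876 sites the Spearman correlation of width with the rank of the p-value, counted from the largest p to the smallest, was 0.980, given as a description since the authors recomputed the p-value over the whole joined site. The sites were cut into 10 equal groups by p-value. The median width was 450 bp in the weakest group and 3550 bp in the strongest. The percent of sites holding a start was 30.9% and 83.4% in these 2 groups. The percent centred within 1 kb was 51.0% in the weakest group, 71.6% in group 9 and 65.2% in group 10, where the wider sites had a median distance of 611 bp between centre and start. CpG density at the centre of the site was 3.70 per 100 bp in the weakest group and 7.00 in the strongest.

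**Figure D2:**
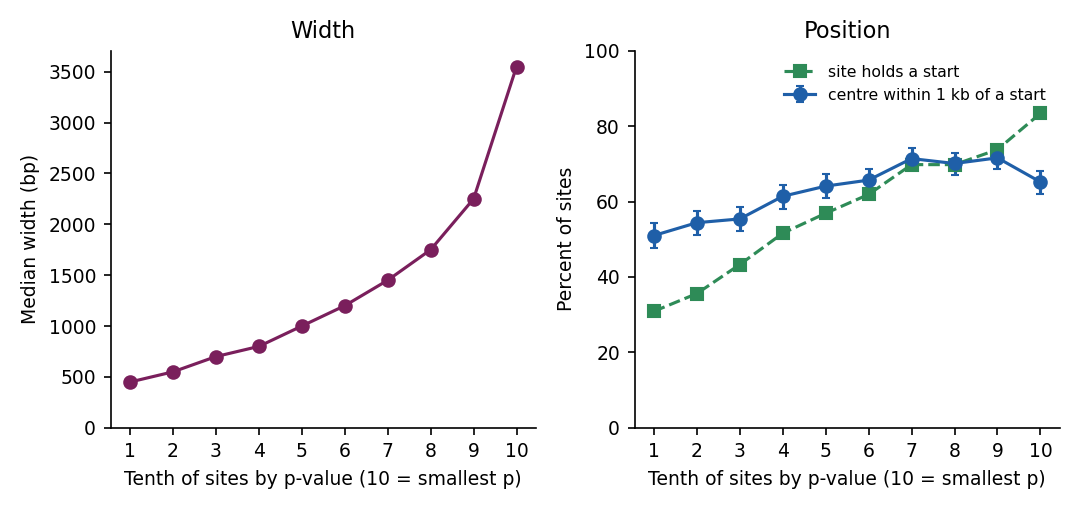
Median width in bp (left) and percent of sites (right) for the 10 groups of Suz12 sites ordered by p-value, from the largest p (1) to the smallest (10); in the right panel circles are sites centred within 1 kb of a start, with 95% Wilson intervals, and squares are sites that hold a start. Width went from 450 to 3550 bp, and the share holding a start from 30.9% to 83.4%.

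Most sites belonged to protein-coding genes. The nearest start was that of a protein-coding gene at 7724 sites (87.0%, 86.3 to 87.7), of a lincRNA at 388 (4.37%), of a processed transcript at 310 (3.49%), of a miRNA at 163 (1.84%) and of a pseudogene at 154 (1.74%). Protein-coding genes made up 60.0% of all annotated genes, lincRNA genes 3.42%, processed transcripts 6.90% and miRNA genes 4.23%. Pseudogenes were also a smaller share of sites than of genes. Genes with more starts can be nearest more often. With only the most 5′ start of each gene, the protein-coding share of sites was 82.1%. A gene was called bound when a Suz12 site lay within 1 kb of any of its starts. By this rule 5345 of 22225 protein-coding genes were bound, a background of 24.0% (23.5 to 24.6) against which the shares of the gene families below are to be read.

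Among other gene types, 386 of 1273 lincRNA genes were bound (30.3%, 27.9 to 32.9), as were 77 of 1577 miRNA genes (4.88%) and 67 of 5201 pseudogenes (1.29%). Bound lincRNA genes often had a coding neighbour: 296 of 386 (76.7%) started within 5 kb of a coding start, compared with 486 of 887 unbound lincRNA genes (54.8%). The median distance to a coding start was 678 bp for bound and 3160 bp for unbound lincRNA genes. Sites at neighbouring starts cannot be told apart at this resolution.

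Developmental transcription factors, which set cell fate in the embryo, were bound at 208 of 242 genes (86.0%, 81.0 to 89.8). All 39 Hox genes, the factors of head-to-tail identity, had a site at a start, as did all 12 LIM homeobox genes, all 12 genes of the list headed by the Iroquois homeobox genes, all 9 Dlx and Msx genes and all 17 homeobox genes of brain patterning. The Pax family was bound at 8 of 9 genes, Nkx at 12 of 14, Sox at 15 of 18, Gata at 5 of 6, T-box at 13 of 16, Zic at 4 of 5, tissue bHLH at 32 of 42 and Forkhead at 30 of 43. The interval of each of these families lay above 24.0%. The families were chosen with earlier results of these data known, and some neighbouring members share a site, so the intervals are a description only.

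The sites at these genes were wide. The median width at bound developmental transcription factors was 3850 bp, compared with 1300 bp over all bound coding genes. The p-value was written as 0 at 124 of the 208, compared with 390 of the 5345 bound coding genes.

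The widest sites of the whole list were named whether or not the gene was in a family list, and Hmx1, E130018O15Rik, Tcfap2a and Skor1 were in none. The widest site of the list covered 16950 bp at Tbx2, a T-box repressor of limb and heart development (chr11:85641901-85658850). It was followed by 14700 bp at Pax7, a factor of muscle stem cells and neural crest (chr4:139376451-139391150), and by 14350 bp over the starts of Hmx1 and E130018O15Rik (chr5:35728801-35743150). Otx1, of the forebrain, had a site of 12750 bp (chr11:21892501-21905250), and Nkx2-2 had one of 12200 bp (chr2:147006001-147018200). Tcfap2a, of neural crest, had a site of 12000 bp, and Tbx1, of the pharyngeal arches, one of 11950 bp. Skor1, a transcriptional corepressor, had a site of 12600 bp (chr9:62987251-62999850).

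The strongest sites of the other developmental families were narrower, from 11700 down to 5500 bp. Hoxb7 shared a site of 11700 bp with Hoxb8, Lhx1 had one of 11500 bp and Olig2, of oligodendrocytes and motor neurons, one of 10500 bp. Dlx2, of forebrain interneurons, had a site of 8950 bp, Gata2, of blood progenitors, one of 8650 bp, Irx3 one of 8550 bp, Foxf1a one of 7700 bp, Zic1 one of 7150 bp and Sox9, of cartilage and testis, one of 5500 bp. All had a p-value written as 0.

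A few members of mostly bound families had no site within 1 kb. Pax4, of the endocrine pancreas, lay 48514 bp from the nearest site and had 0.30 CpG per 100 bp at its start. Gata1, of red blood cells, lay 40842 bp away with 1.80 CpG, and Tbx10, Tbx19 and Tbx6 lay 56302, 33397 and 47654 bp away with 1.30, 1.80 and 2.90 CpG. Nkx2-6 and Nkx6-3 lay 2249 and 2743 bp away, with 2.60 and 2.10 CpG. In contrast, Sox2, a core pluripotency factor expressed in ESCs, had a CpG-dense start (8.50 per 100 bp) with the nearest site 7027 bp away, and Sox12 had 12.8 CpG per 100 bp with the nearest site 228269 bp away.

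The families of signalling ligands, some of whose members are membrane-anchored or stay inside the cell, were bound at 63 of 84 genes (75%, 64.8 to 83%). Wnt ligands were bound at 17 of 19, all 3 Hedgehog ligands had a site, and semaphorins, which guide axons, were bound at 16 of 20. Fgf ligands were bound at 15 of 22 and Bmp and Gdf ligands at 12 of 20. Shh, the Hedgehog ligand of the neural tube and limb, had a site of 9850 bp, Wnt7b one of 8000 bp, Fgf9 one of 6950 bp, Gdf6 one of 5450 bp and Sema6a one of 3500 bp. The unbound Wnt genes, Wnt8a and Wnt8b, lay 4634 and 16589 bp from the nearest site and had 1.90 and 2.10 CpG per 100 bp.

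The Frizzled genes and the genes of Eph receptors and ephrins were bound at 29 of 32 (90.6%, 75.8 to 96.8). All 10 Frizzled receptors, which bind Wnt, had a site, as did 19 of 22 genes of Eph receptors and ephrins, their membrane-bound ligands. Their sites were narrower than those of the transcription factors, with medians of 2425 bp at Frizzled genes and 1700 bp at Eph and ephrin genes. The 3 unbound members, Efna4, Epha1 and Epha2, had 5.80, 4.20 and 6.00 CpG per 100 bp and lay 11851 to 51223 bp from a site.

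Gene families of differentiated neurons and tissues differed in the share bound. The intervals of potassium channels and of glutamate and GABA receptors overlapped those of signalling ligands, Forkhead and tissue bHLH genes. Only potassium channels of these neural families had an interval below that of all developmental transcription factors together. The intervals of collagens and of cadherins and protocadherins lay below that of signalling ligands. Potassium channels were bound at 60 of 92 genes (65.2%, 55.1 to 74.2) and glutamate and GABA receptors at 35 of 47 (74.5%, 60.5 to 84.7), with median widths of 1875 and 1700 bp. Kcnk9, a leak potassium channel, had a site of 4700 bp and Grin2a, a subunit of the NMDA receptor, one of 4350 bp. Collagens were bound at 21 of 43 genes (48.8%, 34.6 to 63.2), with a site of 5000 bp at Col2a1, the collagen of cartilage. Cadherins and protocadherins were bound at 26 of 59 (44.1%, 32.2 to 56.7). Zfp genes, most of which encode zinc finger proteins, were bound at 51 of 340 (15.0%, 11.6 to 19.2), an interval below 24.0%.

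The housekeeping families were seldom bound, though some of their members are used in single tissues only. Of 286 genes 12 had a site at a start (4.20%, 2.42 to 7.19), with a median width of 600 bp and no p-value of 0. Ribosomal proteins were bound at 2 of 80, mitochondrial ribosomal proteins at 4 of 76, respiratory chain subunits at 3 of 82 and proteasome subunits at 3 of 48. The 3 proteasome genes were Psmb8 and Psmb9, subunits of the immunoproteasome, and Psmb11, the subunit of the thymus, with sites of 1800, 2050 and 600 bp. The other 45 genes of the list had no site within 1 kb, among them Psmb10, which is also an immunoproteasome subunit. These genes were named after their values were seen, as was Cox8c, a respiratory chain subunit of the testis with a site of 600 bp. The bound ribosomal genes were Rpl7, whose site of 1400 bp lay 558 bp from a start, and Rpl13a, with a site of 500 bp.

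Among families with expression in single tissues, olfactory receptors, vomeronasal receptors and beta-defensins were almost without sites. Olfactory receptors were bound at 2 of 1087 genes (0.184%, 0.0505 to 0.668), vomeronasal receptors at 0 of 319 (upper limit 1.19%) and beta-defensins at 0 of 41 (upper limit 8.57%). Their starts were CpG-poor, with medians of 0.50, 0.30 and 0.60 CpG per 100 bp, in that order. Coding genes of all kinds with up to 0.50 CpG per 100 bp at the most 5′ start were bound there at 0.224%. Those with 0.50 to 1.00 were bound at 1.21%. Both groups include genes of these families, so the 2 values do not give the share of other CpG-poor genes. Keratins were bound at 6 of 50 genes (12%, 5.62 to 23.8). These were Krt2, Krt7, Krt8, Krt18, Krt19 and Krt83, named after their values were seen. The widest site was the one of 1600 bp at Krt8.

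**Figure D3:**
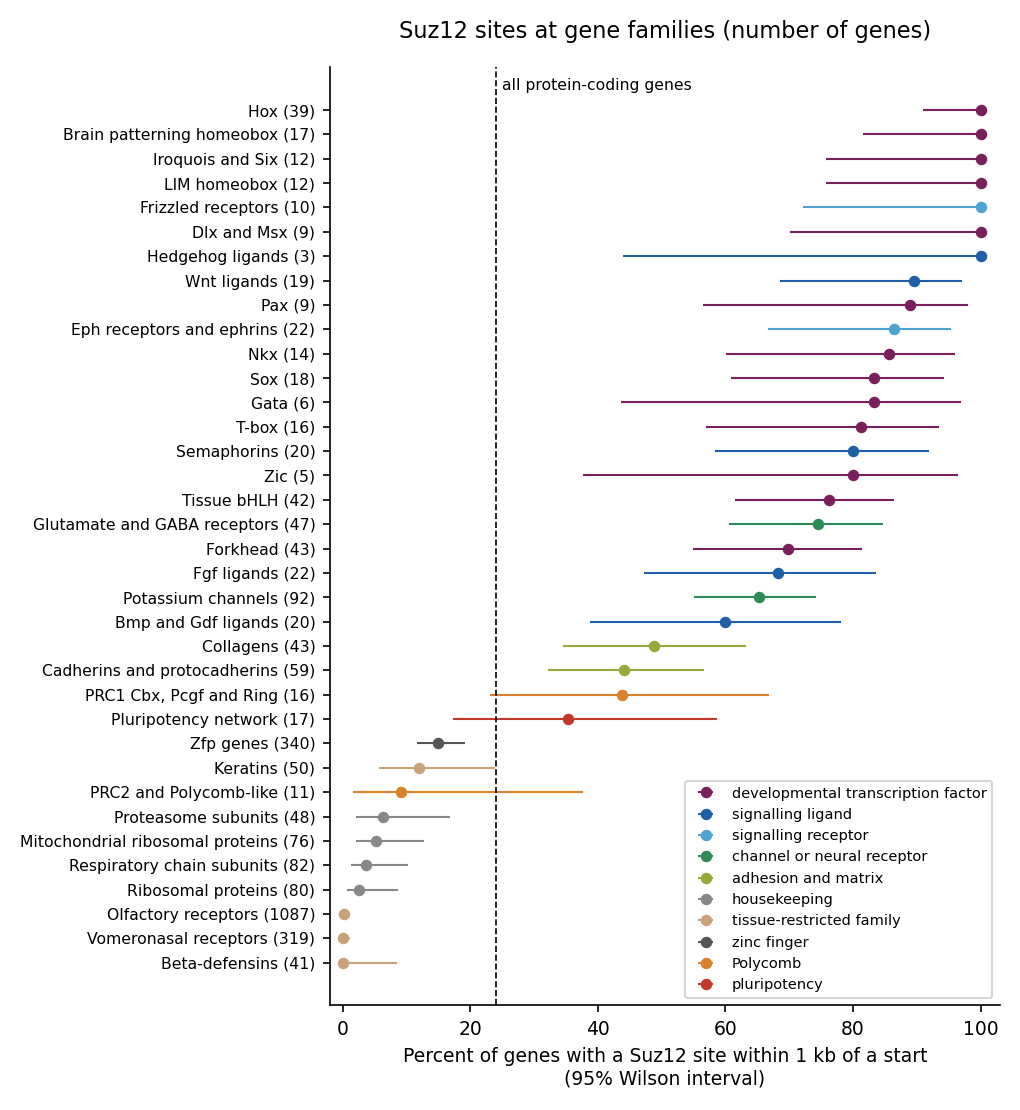
Percent of the genes of each of 36 families with a Suz12 site within 1 kb of a start (points) with 95% Wilson intervals (lines), coloured by role and with the number of genes in brackets; the dashed line marks the 24.0% of all protein-coding genes. Families of developmental regulators lie to the right, up to 39 of 39 Hox genes, and housekeeping and receptor families of single tissues to the left, down to 0 of 319 vomeronasal receptors.

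The Polycomb genes themselves differed between complexes in their counts, with small numbers. Of 11 genes for PRC2 and its accessory proteins, only Phf19 (also called Pcl3) had a site at a start, of 1950 bp with a p-value of 7.19e-89 (chr2:34768251-34770200). Suz12, Eed and Ezh2 had CpG-dense starts (11, 8.80 and 9.30 per 100 bp) and lay 18508, 320958 and 55511 bp from the nearest site. Ezh1, Jarid2, Aebp2, Phf1, Mtf2, Rbbp4 and Rbbp7 were also without a site. Of 16 PRC1 genes 7 had one, among them Cbx8, which encodes a reader of the histone mark, with a site of 12000 bp (chr11:118895201-118907200). Cbx2, its neighbour on chromosome 11, had a site of 2300 bp, Bmi1 one of 3150 bp, Phc2 one of 900 bp, Pcgf5 one of 800 bp and Pcgf2 one of 600 bp. The shares, 1 of 11 (1.62 to 37.7%) and 7 of 16 (23.1 to 66.8%), had overlapping intervals, and both intervals hold the 24.0% of all coding genes.

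Of 17 genes of the pluripotency network, which are active in ESCs, 6 had a site at a start (35.3%, 17.3 to 58.7), an interval that holds 24.0%. Tbx3 had a site of 6250 bp with a p-value of 0, Esrrb one of 2700 bp (p = 6.61e-229, the authors' Skellam p-value), Prdm14 one of 2650 bp and Klf4 one of 2250 bp. Utf1 and Nr0b1 had narrow sites of 500 and 450 bp. Pou5f1, Nanog and Zfp42 had none, with the nearest site 34732, 93840 and 1627638 bp away, and Dppa3, Dppa4, Dppa5a, Klf2, Klf5, Lin28a, Sall4 and Sox2 were also without one.

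**Figure D4:**
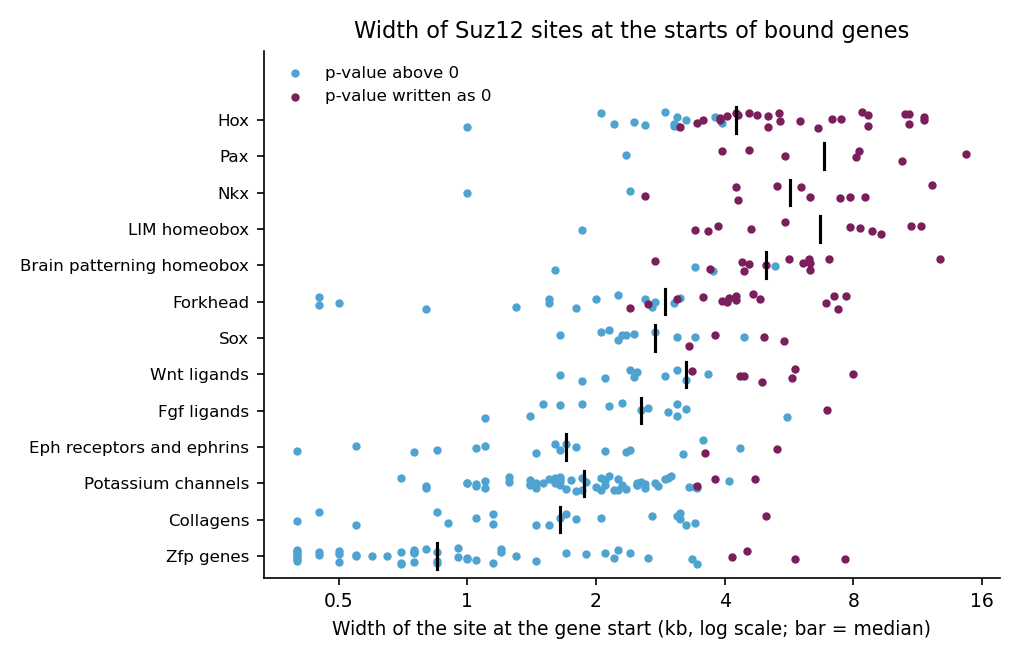
Width in kb (log scale) of the Suz12 site at the start of each bound gene (points) in 13 families, with the median as a bar and dark points where the p-value was written as 0. Median width was 6825 bp in Pax and 6700 bp in LIM homeobox genes, 1700 bp in Eph receptors and ephrins and 850 bp in Zfp genes.

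Bound starts were CpG-dense. CpG density in the 500 bp on each side of the most 5′ start had a median of 6.60 per 100 bp (6.50 to 6.70) at 4986 starts with a site and 2.50 (2.40 to 2.60) at 17381 starts without one. When the coding genes were cut into 10 equal groups by CpG density, 5 of 2237 starts were bound in the poorest group (0.224%, 0.0955 to 0.522) and 1029 of 2236 in the densest (46.0%, 44.0 to 48.1). The share stood at 7.87% in group 4, which ended at 2.50 CpG per 100 bp, and at 26.4% in group 5. From group 6 to group 8 it lay between 32.2% and 33.9%, with overlapping intervals.

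**Figure D5:**
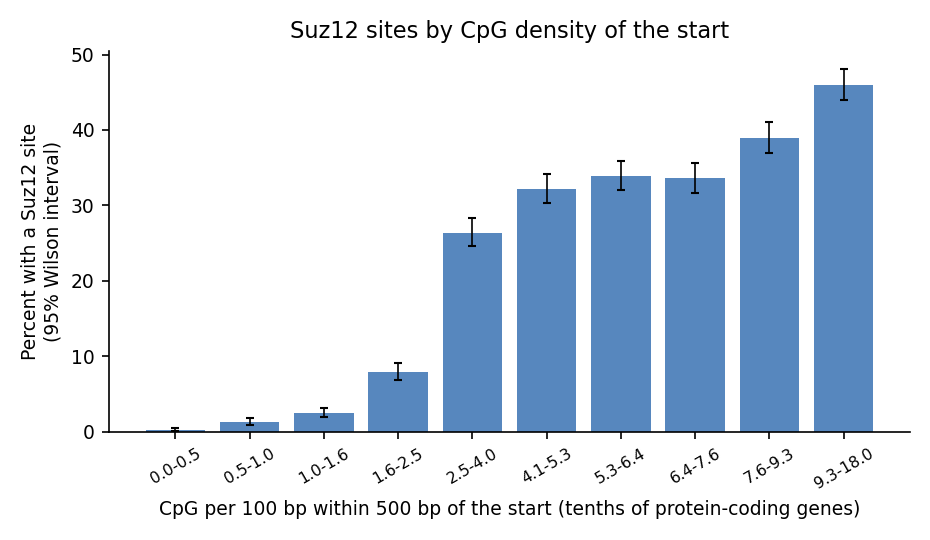
Percent of protein-coding genes with a Suz12 site within 1 kb of the most 5′ start (bars, with 95% Wilson intervals) in 10 groups of genes by CpG per 100 bp within 500 bp of the start. Bars go from 0.224% in the poorest group to 46.0% in the densest, with a step from 7.87% to 26.4% between groups 4 and 5.

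CpG density alone did not separate the gene classes. The gene classes were counted by distinct symbol and with a site at any start, as in the family counts, rather than at the most 5′ start. So counted, 2681 of 6675 genes in the 3 densest groups were bound (40.2%, 39.0 to 41.3), compared with 102 of 108 developmental transcription factors (94.4%, 88.4 to 97.4) and 4 of 110 housekeeping genes (3.64%, 1.42 to 8.98). Developmental transcription factors in the other 7 groups were bound at 106 of 134 genes (79.1%, 71.5 to 85.1). Hox genes had a median of 4.5 CpG per 100 bp and ribosomal proteins 6.45, and 39 of 39 against 2 of 80 were bound.

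The 5 bound genes of the poorest CpG group were Dusp8, Klf1, Lor, Tchh and Tmem90b, named after their values were seen. Their sites lay 704 to 909 bp from the start, and the centres of those sites had 7.4 to 11.3 CpG per 100 bp, compared with 0.400 to 0.500 at the starts. The site counted for Tmem90b was nearest to the start of another gene, C530025M09Rik.

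Within a gene the site was found mostly at the promoter with more CpG. Starts of a gene more than 1 kb apart were treated as separate promoters, and some annotated starts may be those of incomplete transcripts. Among 1152 bound genes with 2 promoters, 918 (79.7%, 77.3 to 81.9) had a site at exactly 1. In 886 of these 918 genes (96.5%, 95.1 to 97.5) the bound promoter had more CpG, with medians of 7.10 and 1.30 per 100 bp, and in 795 (86.6%) it was the 5′ one. Developmental transcription factors with several promoters had sites at all of them in 39 of 58 bound genes (67.2%, 54.4 to 77.9), compared with 240 of 2560 other bound genes (9.38%, 8.31 to 10.6). All promoters were bound in 20.3% of bound genes with 2 promoters and in 3.07% of those with 3 or more. A single wide site can reach several promoters. Site width and the number and spacing of promoters were not matched.

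Ebf3, a factor of neurons and olfactory epithelium, shows this difference inside 1 gene. It was the gene with 2 promoters, 1 of them bound, that had the smallest p-value and then the widest site. Both stretches are on the minus strand with CpG in capitals.
Ebf3, bound promoter, chr7:144506069-144506188: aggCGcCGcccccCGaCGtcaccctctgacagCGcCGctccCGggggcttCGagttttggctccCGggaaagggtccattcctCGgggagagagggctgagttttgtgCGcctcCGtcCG
Ebf3, other promoter, chr7:144459162-144459281: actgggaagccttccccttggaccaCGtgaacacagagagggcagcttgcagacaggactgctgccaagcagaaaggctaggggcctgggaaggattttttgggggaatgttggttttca

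The bound promoter of Ebf3 held 13 CpG in the stretch and 13.8 per 100 bp over 1 kb, inside a site of 11600 bp. The other promoter held 1 CpG in the stretch and 1.5 per 100 bp, with the nearest site 41180 bp away.

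Wide sites often lay at developmental transcription factors. Of 309 coding genes with a site of at least 4 kb at a start, 96 (31.1%, 26.2 to 36.4) were in the developmental transcription factor families. These families make up 3.89% (3.41 to 4.44) of bound coding genes and 1.09% of all coding genes. Of 26 genes with a site of at least 10 kb, 14 were in those families. A single site covered 137 bound genes over their whole length (2.56%), with a median gene length of 1552 bp, and 37 of them were developmental transcription factors (17.8% of the 208 bound). At bound developmental transcription factors a site covered a median of 74.8% of the gene, compared with 2.89% over all bound genes. The share covered depends on gene length, which was not matched. Bound genes not covered whole had a median length of 33484 bp. The longest genes covered whole were Hmx1 (10873 bp), Tbx2 (9398 bp), Hoxc9 (8661 bp), Otx1 (8134 bp) and Islr2 (8022 bp).

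Most genes had a single site. Sites were assigned to 6351 genes, of which 4879 (76.8%, 75.8 to 77.8) had 1 site, 941 (14.8%) had 2, 291 (4.58%) had 3 and 240 (3.78%) had 4 or more. The gene model named Pcdhgc5 had the most, with 22 sites inside it, and spans 167539 bp, so the count is one over the gamma protocadherin cluster rather than over a single promoter. The model named Pcdha11 likewise spans 257373 bp. Nr2f2, an orphan nuclear receptor of veins and atria, had 14, up to 79229 bp from its starts. Sfi1 had 14, Tbx5, of heart and forelimb, 12 and Lbx1, of limb muscle and spinal cord, 11. Bcor, Hoxb3, Nfix and Pcdha11 each had 10. In the other direction, 191 sites held the starts of 2 coding genes, which were on opposite strands at 168 (88.0%).

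Sites gathered at some loci. When sites less than 10 kb apart were joined into runs, 59.4% of sites were alone, and 925 sites (10.4%) lay in 124 runs of 5 or more. The 4 Hox clusters were the 4 largest runs. The Hoxb run held 35 sites over 124100 bp, 69.3% of which was inside sites (chr11:96112051-96236150). The Hoxd run held 32 sites, the Hoxc run 31 and the Hoxa run 29, with 57.6% to 67.3% inside sites. Their CpG density at site centres had medians of 2.50 to 3.05 per 100 bp, below the 5.80 of all sites.

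Among the 10 largest runs, the one at Sfi1 and Pisd-ps1 had the lowest median CpG density, 1.00 per 100 bp (chr11:3031801-3080350). It held 17 sites with a median p-value of 2.69e-10 and a median width of 700 bp. None of its p-values was written as 0, which also held for the protocadherin run on chromosome 18 and the Zic run on chromosome 14. The Pcl3-TAP list, from another cell line, had 18 sites in the same stretch. Whether copies of this sequence elsewhere in the genome bear on these sites was not tested.

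Sites more than 10 kb from a start were narrower and less CpG-dense than those within 1 kb. The Spearman correlation of centre distance with the same rank of the p-value was −0.0642 (n = 8876 sites). A wide site can hold a start far from its centre, so this value alone does not describe how p-value and distance relate. In the weakest group by p-value 20.6% of sites lay more than 10 kb from a start, compared with 4.62% in the strongest. The 1194 sites more than 10 kb from a start had a median width of 850 bp and a median −log10 p of 17.6, compared with 1200 bp and 30.6 for sites within 1 kb. Their centres had 4.10 CpG per 100 bp, compared with 7.00 within 1 kb of a start and 1.10 at positions 10 kb away from the same sites. Of these sites 755 (63.2%) lay between genes. At 706 (59.1%, 56.3 to 61.9) the nearest coding gene had a site of its own at a start, and at 124 (10.4%, 8.78 to 12.2) it was a developmental transcription factor. The 2088 sites at 1 to 10 kb from a start had 4.00 CpG per 100 bp. They had the highest share of p-values written as 0, 7.57% compared with 4.74% within 1 kb and 1.01% beyond 10 kb. Distance was taken from the centre, so this class includes wide sites that hold a start. An example is the site of 16950 bp at Tbx2, with its centre 4322 bp from a start. Of these 2088 sites, 380 (18.2%, 16.6 to 19.9) were nearest to a developmental transcription factor. At 79.7% of them the nearest coding gene had a site at a start, which can be the same site. The farthest site lay 691222 bp from a start (chr12:44073601-44074250), with a width of 650 bp and a p-value of 2.72e-08. Another lay 460215 bp upstream of Rbfox1, a neuronal splicing factor (chr16:6348301-6349900), with a width of 1600 bp and a p-value of 1.50e-57.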

How the data were processed

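The authors aligned single-end reads to mm9 with Bowtie (version not given in the sources used here) and used reads with a unique alignment. They brought the background of ChIP and input to the same level, tested running windows with the Skellam distribution and joined overlapping significant windows. The deposited unit is a p-value recomputed by the authors for each joined site. Site ends lay on a grid of 50 bp, and the largest p-value was 8.84e-07. Unique alignment leaves out most repeated sequence, and joining windows makes width and p-value move together. That the Suz12-TAP list is scramble ChIP against input was taken from the study's methods and the name of the list. Lists of depleted sites were not used.

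Coordinates are 1-based in mm9. Starts came from GENCODE vM1, and CpG was counted in the mm9 sequence. Each site was assigned to the start nearest to its centre, and a gene was bound with a site within 1 kb of any start. The tools were pysam 0.24.0, pandas 2.3.3 and statsmodels 0.14.6, run in Python 3.11.15. Shares have 95% Wilson intervals and medians 95% binomial order-statistic intervals. The nearest-start search was tested on simulated sites, where 0 of 2401 searches differed from a search of all pairs. With 1 library no test was run.

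The 36 gene families were defined by symbols, and 42 of 44 tissue bHLH and 17 of 18 pluripotency symbols matched. The members and lists were chosen with earlier results of these data known. Genes named were the 10 widest sites among the smallest p-values, the 10 genes with most sites, sites with most coding starts or farthest from a start, the strongest member of each family, up to 4 unbound members of families bound at 80% or more, and all PRC2 and pluripotency genes. A few items that this rule covers are not reported here. Other genes were named after their values were seen. The alternatives were other sets of starts, site edges, a p-value of at most 1e-12, autosomes only, merged sites, other distances and a shorter CpG window.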

Additional observations from a re-analysis of the deposited data

How the results depend on the processing

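Of 37 recomputed values, 15 lay within the 95% interval of the reported value and 22 outside it. With the most 5′ start of each gene only, 52.8% of centres lay within 1 kb of a start, the median distance was 833 bp, 82.1% of sites were nearest to a protein-coding gene, 22.3% of coding genes were bound and 78.5% of assigned genes had 1 site. With starts of protein-coding genes only the values were 60.0% within 1 kb, 504 bp and 72.7% with 1 site, and the share nearest to a coding gene is 100% by construction. From the nearest edge of the site, 68.1% lay within 1 kb and the median distance was 0 bp. With p-values of at most 1e-12, 66.1% lay within 1 kb, the median distance was 405 bp, 19.8% of coding genes were bound and 81.2% of genes had 1 site. With sites less than 1 kb apart merged, 66.9% lay within 1 kb, the median distance was 380 bp and 83.3% of genes had 1 site. Without chromosomes X and Y, 24.7% of coding genes were bound. When the site had to cover the start 21.2% were bound, and 26.2% when it could lie within 5 kb. Over 250 bp on each side, CpG density was 7.80 per 100 bp at starts with a site and 3.00 without. The share of developmental transcription factors bound lay between 83.1% and 87.6% under its 6 alternatives, all inside the interval of 81.0% to 89.8%. No paired analysis was possible because the list rests on 1 ChIP library and 1 input library. The lists hold no read counts, so a gene without a site is one without a call, not one shown to lack Suz12.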

Other observations

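Suz12 sites were unevenly spread over the chromosomes. Chromosome 11, which carries the Hoxb cluster, Tbx2, Lhx1, Otx1 and Cbx8, had 921 sites or 7.56 per Mb, and 522 of its coding genes were bound (31.6%). Per 100 coding genes it had 55.7 sites, compared with 54.9 on chromosome 18, 52.1 on chromosome 12 and 17.9 on chromosome X. Chromosome 12 had 3.03 sites per Mb and the highest share of bound genes, 34.2%. Chromosome X had 167 sites or 1.00 per Mb, with 96 of 932 coding genes bound (10.3%), and chromosome Y had 2 sites. Chromosome 7, which holds 2072 coding genes, had 15.4% of them bound. The copy number of these chromosomes in the cells was not tested.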
